A study of Mus musculus with 6 samples.

Results

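The 31 genes described here are known for high expression in tissues that lie beside or run through a dorsal root ganglion, and 31 of the 36793 genes of the deposited table belong to them. They were chosen by name: 12 genes of skeletal muscle, 7 of fat, 6 of red blood cells and their precursors (erythroid genes) and 6 of bone and cartilage. RNA came from whole lumbar dorsal root ganglia of mice, which hold the cell bodies of sensory neurons with the glia around them. The series compared 3 wild-type mice, numbered 1 to 3, with 3 mice labelled as knockouts of the NMDA receptor, numbered 4 to 6. Its title places the deletion of the gene for the receptor's GluN1 subunit in Schwann cells, the glia that wrap axons of peripheral nerves. No Cre driver, strain, age, sex, litter or batch is given in the labels, and nothing beyond the mouse numbers says that the samples are separate animals, so p-values measure only the spread between these samples. The labels name Schwann cells as the cell type, but the RNA held the ganglion's other cells too. Summed over 7 sensory neuron genes, such as Tubb3, Prph and Avil, the level was 5550 to 7051 TPM (transcripts per 1000000, a level per transcript length), and the Schwann cell genes Pmp22 and Mbp were at 1654 to 1988 TPM and 1372 to 1826 TPM. The satellite glia genes Fabp7 and Glul were at 368 to 543 TPM and 250.02 to 396 TPM.

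The targeted gene, Grin1, was at 38.8, 63.7 and 42.6 TPM in wild type 1, 2 and 3 and at 46.2, 65.8 and 69.7 TPM in knockout 4, 5 and 6. By the edgeR quasi-likelihood test the log2 fold change of Grin1 was 0.21 (standard error 0.26, adjusted p = 0.812 by Benjamini-Hochberg), so whole-ganglion RNA did not separate the labels by this gene. Libraries held 28526704 to 36249163 expected counts. Libraries of knockout 5 and 6 agreed within sampling noise, with a mean chi-square of 1.15 per gene and 0 of 10258 genes different, where the other 14 pairs of libraries had 13.2 to 104.0 and 3382 to 7317 different genes. Of the 20 members with a mean count of at least 20, 0 differed between knockout 5 and 6 and 10 to 18 differed in every other pair. The counts of knockout 5 and 6 were summed and entered as 1 sample, so the comparison had 3 wild-type and 2 knockout samples.

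Skeletal muscle RNA is dominated by a small set of messages for the contractile machinery, among them actin, myosin, troponin and the calcium pump of the sarcoplasmic reticulum. Adipocytes are marked by lipid droplet coat proteins and secreted adipokines, and developing red cells by globins and the enzymes of heme synthesis, part of which persist in circulating reticulocytes. A ganglion is wrapped in a capsule, supplied by blood vessels and seated in a bony foramen beside paraspinal muscle.

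Several members are copies with near-identical coding sequences, which left the read counter little to divide them by within those sequences. The adult alpha-globin genes Hba-a1 (chromosome 11, 32283511 to 32284465, GRCm38) and Hba-a2 (chromosome 11, 32296489 to 32297298) have coding sequences of 429 bases that differ by C381T, counted from the first base of the start codon, with Hba-a1 first. The adult beta-globin genes Hbb-bs (chromosome 7, 103826534 to 103828096) and Hbb-bt (chromosome 7, 103812524 to 103813996) have 444 coding bases that differ by C417T. The osteocalcin genes Bglap (chromosome 3, 88383501 to 88384464) and Bglap2 (chromosome 3, 88377736 to 88378699) differ at 4 of 288 coding bases. The stretches that hold these differences follow, with the differing bases in capitals. They cover coding bases 322 to 381 for the alpha globins, 358 to 417 for the beta globins, and 1 to 60, with 3 of the 4 differences, for osteocalcin, from GENCODE vM21 transcripts.
Hba-a1: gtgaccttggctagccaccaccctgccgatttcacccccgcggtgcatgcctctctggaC
Hba-a2: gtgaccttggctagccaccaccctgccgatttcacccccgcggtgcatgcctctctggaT
Hbb-bs: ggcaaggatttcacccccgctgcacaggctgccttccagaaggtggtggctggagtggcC
Hbb-bt: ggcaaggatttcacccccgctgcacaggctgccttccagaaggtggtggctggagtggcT
Bglap: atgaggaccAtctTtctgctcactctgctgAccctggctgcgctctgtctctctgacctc
Bglap2: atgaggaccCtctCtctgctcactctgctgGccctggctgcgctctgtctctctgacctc
Of all 75-base stretches of their transcripts, 67.9% in Hba-a1, 84.6% in Hba-a2, 51.5% in Hbb-bs, 56.6% in Hbb-bt, 50% in Bglap and 73.3% in Bglap2 also occur in another gene. For the fast myosins the share was 15.8% in Myh1, 13.9% in Myh2 and 9.7% in Myh4, for Acta1 it was 0.4%, and for the other members 0. The split of reads between the copies is therefore an estimate. The stretches of the globins are shared within each pair, whereas Bglap and Bglap2 also share some with Bglap3 and the fast myosins with Myh8, so sums of these depend on the division of reads too. Only the transcript strand was searched, while exons of Ckm, Tnnc2, Atp2a1 and Alas2, among others, overlap genes on the opposite strand.

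Most muscle and erythroid members were high in the same library, so 4 of their promoters are shown, for 2 muscle and 2 erythroid genes, as the 250 bases before the RefSeq start site (GRCm38.p6). Capitals mark the CArG box, which serum response factor binds, and the E-box CANNTG, which MyoD-type factors bind, in the muscle genes. In the erythroid genes they mark GATAA, the core of the site for GATA factors, CCNCNCCCN, the type of site that the erythroid factor Klf1 binds, and TATAAA. Both strands were searched, and where the letters match on the other strand the complement is in capitals. The regions are chr8:123894776-123895025 (minus strand) for Acta1, chr11:67237562-67237811 (plus strand) for Myh4, chr7:103827929-103828178 (minus strand) for Hbb-bs and chrX:150547167-150547416 (plus strand) for Alas2.
Acta1: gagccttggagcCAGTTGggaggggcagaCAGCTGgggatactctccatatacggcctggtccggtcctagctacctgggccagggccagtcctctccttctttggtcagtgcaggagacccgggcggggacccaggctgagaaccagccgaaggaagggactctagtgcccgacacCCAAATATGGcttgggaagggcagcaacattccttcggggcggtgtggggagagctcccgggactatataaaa
Myh4: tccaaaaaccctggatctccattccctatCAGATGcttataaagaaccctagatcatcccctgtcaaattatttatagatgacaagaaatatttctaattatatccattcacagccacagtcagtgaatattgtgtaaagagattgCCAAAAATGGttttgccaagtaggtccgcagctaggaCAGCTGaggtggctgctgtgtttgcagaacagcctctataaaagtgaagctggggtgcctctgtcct
Hbb-bs: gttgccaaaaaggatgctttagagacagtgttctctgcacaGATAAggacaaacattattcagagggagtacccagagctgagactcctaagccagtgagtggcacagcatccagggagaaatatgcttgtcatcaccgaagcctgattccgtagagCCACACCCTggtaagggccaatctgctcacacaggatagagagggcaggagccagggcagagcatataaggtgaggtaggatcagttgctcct
Alas2: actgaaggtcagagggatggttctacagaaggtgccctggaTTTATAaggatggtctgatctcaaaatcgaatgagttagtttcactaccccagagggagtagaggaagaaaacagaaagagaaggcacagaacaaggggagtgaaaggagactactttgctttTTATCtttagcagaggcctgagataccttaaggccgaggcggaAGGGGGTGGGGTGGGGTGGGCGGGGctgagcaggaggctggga
The CArG box lay 73 bases before the start in Acta1 and 104 bases before it in Myh4, the 2 of 10 muscle members with a listed promoter that hold it, and 1.5% of all 32851 listed promoters hold it. A MEF2 motif was in 1 of the 10 muscle promoters and in 0.5% of all. CANNTG was in 8 of the 10, but also in 66.2% of all promoters. GATAA was in 5 of 5 erythroid promoters listed, against 22.6% of all. It lay 209 bases before the start in Hbb-bs and 86 bases before it in Alas2. The 5 are not independent: the Hba-a1 and Hba-a2 stretches are nearly the same sequence, with GATAA 182 and 185 bases before the start. Hbb-bs and Hbb-bt are also a pair of copies, with GATAA at 209 and 204 bases. Slc4a1 had no listed promoter. CCNCNCCCN was in 3 of the 5 and in 45.8% of all, with 4 overlapping matches in Alas2, and TATAAA in 2 of the 5 and in 12.4% of all. These are matches of letters and were not tested as binding sites.

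No member passed the comparison of genotypes. Of the 31 members, 24 had enough counts to be tested, and 0 were called at an adjusted p of 0.05 by the edgeR quasi-likelihood test, where 0.0952% of all 16810 genes tested were called. The smallest adjusted p among the members was 0.469, for Ibsp, and 3 members had an unadjusted p under 0.05 (Myh4, Alas2 and Ibsp), where 9.16% of all genes tested did. DESeq2 and limma on log2(TPM + 1) also called 0 members, with 3 and 2 at an unadjusted p under 0.05, and neither edgeR, DESeq2 nor limma called any of the 106 further genes listed for these 4 tissues. Log2 fold changes were positive for 20 members and negative for 4, with a median of 1.10, against 50.2% positive and a median of 0.00 (0.00109) over all genes tested. The knockout and wild-type samples overlapped for all tested members except Ibsp, while 27.4% of all genes tested had groups that did not overlap. In bulk RNA of this kind, fewer cells of a type and less RNA per cell cannot be told apart.

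**Figure D1:**
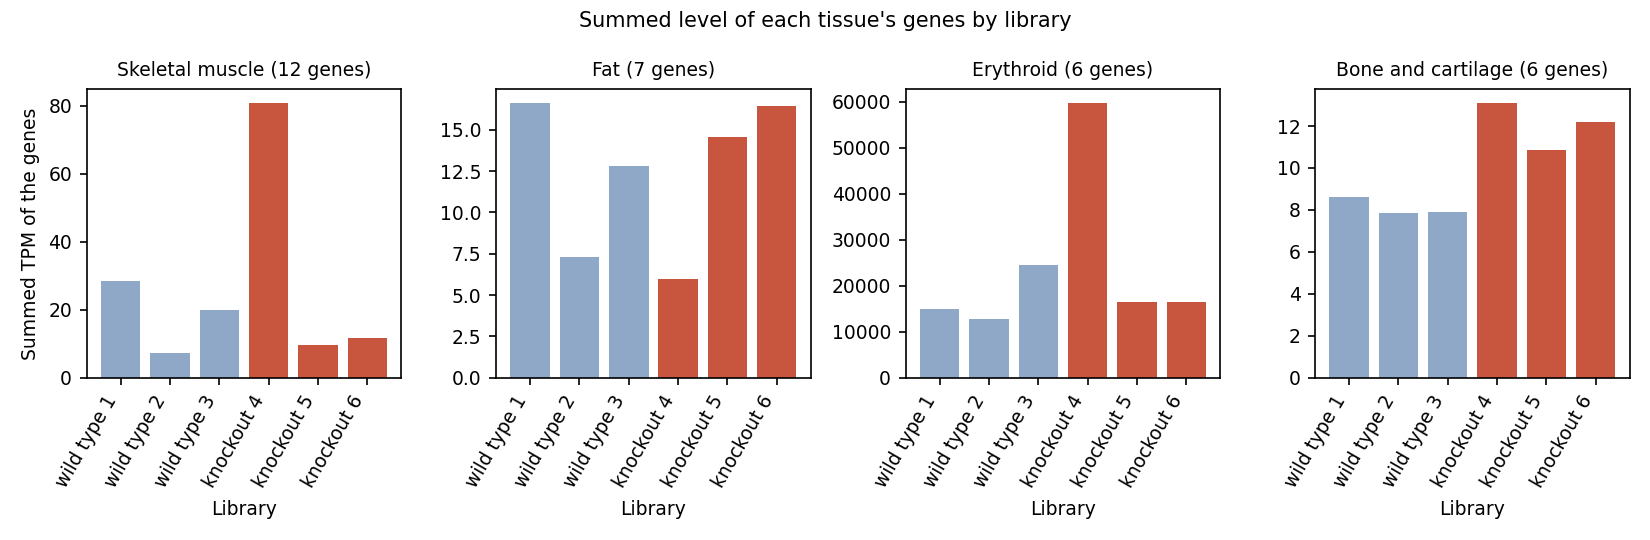
Summed TPM of the members of each tissue in each of the 6 libraries (blue bars, wild type; red bars, knockout; each bar is 1 library, and the 4 panels have their own scales). Knockout 4 stands highest for muscle at 80.8 TPM and for erythroid genes at 5.97% of all TPM, and lowest for fat at 6.00 TPM.

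Among the samples, knockout 4 stood apart. It was the highest of the 5 samples for 15 of the 24 tested members, where this was so for 15.3% of all genes tested, and wild type 2 was the lowest for 15, against 19.9%. For 16 of the 24, knockout 4 had at least 2 times the CPM of knockout 5 and 6, against 2.76% of all genes tested. The members were chosen with earlier results of these data known, and many share a tissue, so these counts are descriptions only. Without knockout 4, which leaves 1 knockout sample that is assumed to vary like the wild-type samples, 16 of the 24 members changed the sign of their log2 fold change. The plot of fold changes with and without each knockout sample shows this reversal gene by gene.

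**Figure D2:**
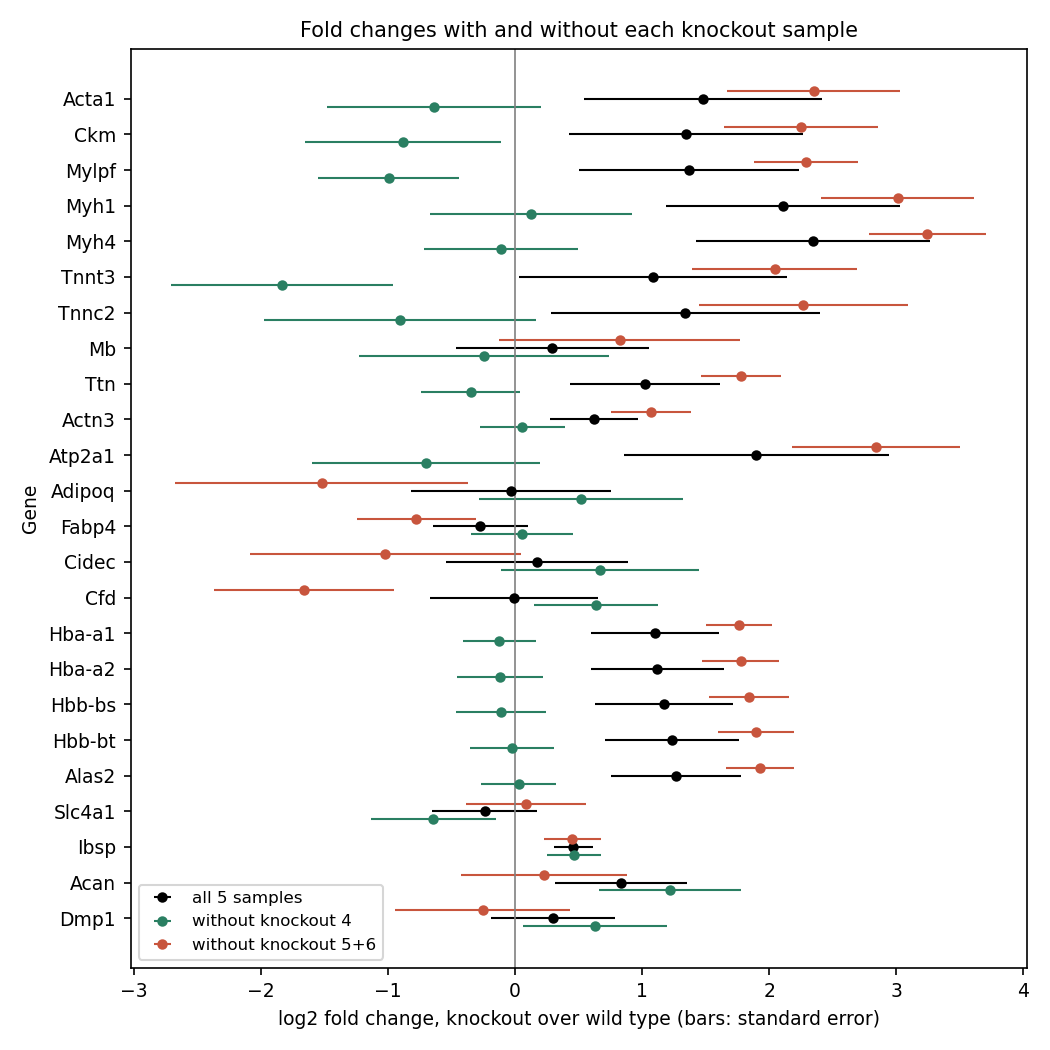
Log2 fold change of knockout over wild type for the 24 tested members (points; bars are standard errors) with all 5 samples in black, without knockout 4 in green and without knockout 5 and 6 in red. For the muscle and globin genes the green points lie at or below 0.12 and the red points at 0.82 or above, while the 3 points of Ibsp coincide near 0.46.

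Skeletal muscle members were present at low levels in every library and were highest in knockout 4. Their summed level was 28.53, 7.22 and 19.8 TPM in wild type 1, 2 and 3 and 80.8, 9.55 and 11.7 TPM in knockout 4, 5 and 6. Wild type 1 and 3 lay between knockout 4 and the other libraries, so the knockout group held both the highest library and levels below most of the wild-type ones. In counts, the 12 genes made up 1612 of 28536700 counts in knockout 4, 0.00565% (95% Wilson interval 0.00538 to 0.00593%), and 0.000521 to 0.00168% in the other libraries. This and the other intervals given cover counting error only. All 11 tested members had positive log2 fold changes, from 0.29 to 2.34 with a median of 1.35, and 0 passed. For 10 of the 11, knockout 4 was the highest sample, the exception being Mb, against 15.3% of all genes tested.

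The thin filament genes were highest in knockout 4 too. Acta1, the actin of adult skeletal muscle, was at 4.28, 0.64 and 2.82 TPM in wild type 1, 2 and 3 and at 12.8, 1.40 and 1.99 TPM in knockout 4, 5 and 6. Knockout 4 was thus above every wild-type library and knockout 5 and 6 lay inside the wild-type range, with a log2 fold change of 1.48 (standard error 0.94, edgeR adjusted p = 0.659). In TMM-normalised CPM, Acta1 was 8.00 times as high in knockout 4 as in knockout 5 and 6 (95% counting interval 6.10 to 10.6). This compares these libraries and not conditions. Tnnt3, fast troponin T, was at 7.49, 1.29 and 4.95 TPM in wild type and at 18.3, 0.79 and 1.99 TPM in knockout 4, 5 and 6. Its ratio of knockout 4 to knockout 5 and 6 was the largest of the tested members, 14.8 (10.3 to 21.95), while knockout 5 stood below all wild-type libraries. Tnnc2, fast troponin C, was at 3.92, 0.32 and 1.88 TPM in wild type and at 9.71, 0.61 and 1.63 TPM in knockout 4, 5 and 6. Wild type 1 exceeded wild type 2 by 12.0 times for Tnnc2 (3.82 to 61.0, from few counts in wild type 2), a spread within 1 genotype as wide as that between the knockout samples.

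The thick filament genes were led by knockout 4 as well. Myh4, the myosin heavy chain of the fastest (type IIB) fibres, was at 0.52, 0.19 and 0.58 TPM in wild type and at 3.93, 0.44 and 0.36 TPM in knockout 4, 5 and 6. Its log2 fold change of 2.34 (standard error 0.92, edgeR adjusted p = 0.527) was the largest of any member, and without knockout 4 it was -0.11. Myh1, the heavy chain of IIX fibres, was at 0.16, 0.04 and 0.07 TPM in wild type and 0.76, 0.14 and 0.07 TPM in knockout 4, 5 and 6. Myh2, the heavy chain of IIA fibres, did not share the pattern: it had 2.53 to 11.9 counts per library, was at 0.06 TPM in knockout 4, and was highest in knockout 6 at 0.18 TPM. It was not tested for lack of counts. Myh1, Myh2 and Myh4 lie side by side on chromosome 11 (67171027 to 67260446, from the start of Myh2 to the end of Myh4). Of the counts of Myh1, Myh2, Myh4 and the slow heavy chain Myh7, Myh4 held 81.9% in knockout 4 (Wilson interval 77.8 to 85.4%), 65.8% in wild type 1 (54.3 to 75.6%), 64.0% in wild type 2, 73.0% in wild type 3, 63.1% in knockout 5 and 57.4% in knockout 6 (44.2 to 69.7%). The interval of knockout 4 overlapped those of wild type 2 and 3 and lay above those of the other libraries. Mylpf, the fast regulatory light chain, was at 4.61, 2.42 and 3.47 TPM in wild type and at 15.6, 1.83 and 1.40 TPM in knockout 4, 5 and 6.

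The genes of energy supply and calcium handling split. Ckm, the muscle creatine kinase, was at 2.96, 0.66 and 1.53 TPM in wild type and at 7.91, 0.94 and 0.91 TPM in knockout 4, 5 and 6. Atp2a1, the fast-fibre calcium pump, was at 2.07, 0.26 and 1.55 TPM in wild type and at 7.17, 0.39 and 0.66 TPM in knockout 4, 5 and 6. In TMM-normalised CPM, its level in knockout 4 was 11.8 times that in knockout 5 and 6 (7.81 to 18.3). Its exons overlap those of Rabep2 on the opposite strand by up to 336 bases, so reads there could belong to either gene. Rabep2 had 542 to 709 counts per library and Atp2a1 4.71 to 145. Ckm and Atp2a1 thus resembled Acta1, with knockout 4 above and knockout 5 and 6 within the range of wild type. Mb, the oxygen store myoglobin of oxidative fibres, did not: it was at 0.58, 0.15 and 1.26 TPM in wild type and at 1.12, 0.78 and 0.31 TPM in knockout 4, 5 and 6, from 2 to 15 counts per library, with the highest level in wild type 3.

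Both structural genes had their highest count in knockout 4. Actn3, the alpha-actinin of fast-fibre Z discs, was at 1.64, 1.18 and 1.56 TPM in wild type and at 3.31, 2.09 and 1.98 TPM in knockout 4, 5 and 6, with a log2 fold change of 0.62 (standard error 0.35, edgeR adjusted p = 0.615). By TMM-normalised CPM knockout 5 and 6 fell inside the wild-type range. Knockout 4 exceeded them 2.03 times (1.51 to 2.71), against 4.40 to 14.8 times for the tested muscle members other than Actn3 and Mb. Ttn, the giant spring protein titin, was counted 39, 32 and 41 times in wild type and 120, 28 and 34 times in knockout 4, 5 and 6, highest in knockout 4. Its TPM gave another order, 0.22, 0.04 and 0.05 in wild type and 0.13, 0.03 and 0.18 in knockout 4, 5 and 6. The deposited gene length of Ttn, by which TPM divides, was 11653 bases in wild type 1 and 13239 bases in knockout 6 but 52660 to 65932 bases in the other 4 libraries.

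**Figure D3:**
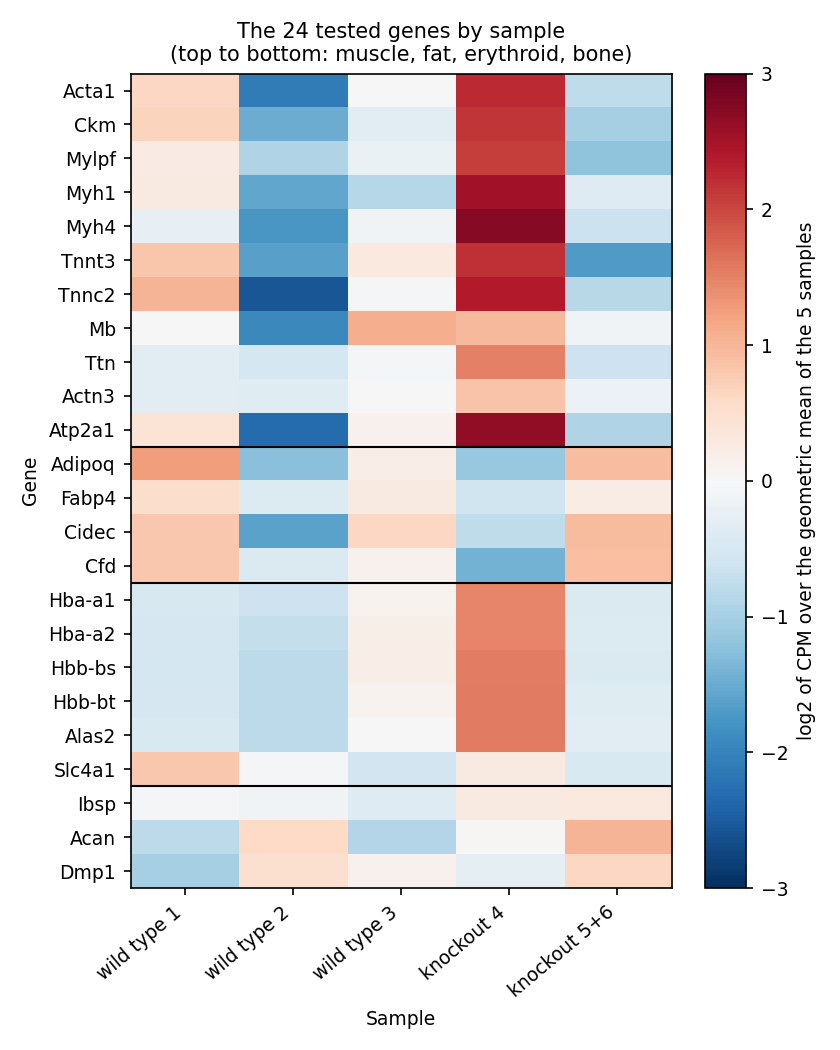
Level of the 24 tested members in each of the 5 samples, as log2 of TMM-normalised CPM over the gene's geometric mean of the 5 samples (red, above; blue, below; black lines separate muscle, fat, erythroid and bone genes). Knockout 4 is red for the muscle and erythroid genes, only faintly so for Slc4a1, and blue for the fat genes, and wild type 2 is blue for most muscle and fat genes.

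Knockout 4 had at least 2 times the CPM of knockout 5 and 6 for 11 of the 11 tested muscle members. The same held for 6 of the 24 further muscle genes tested and for 2.76% of all genes tested. Of 35 further muscle genes, 24 were tested and 0 were called, with 20 positive and 4 negative log2 fold changes and a median of 0.45. An unadjusted p under 0.05 was reached by 3, against 9.16% of all genes tested. Knockout 4 was the highest sample for 15 of the 24, against 15.3% of all genes tested. The 3 at the highest level were Pvalb, a calcium buffer of fast muscle that proprioceptive sensory neurons also make, Smpx, a small muscle protein, and Eno3, the muscle enolase. Pvalb was at 173, 165 and 129 TPM in wild type and 211, 194 and 201 TPM in knockout 4, 5 and 6, and Smpx and Eno3 at 10.04 to 18.2 TPM in all libraries. None of these 3 set knockout 4 apart from knockout 5 and 6 as Acta1 did. The fast light chain Myl1 and the fast troponin I gene Tnni2, both picked after their values were seen, were highest in knockout 4 like Acta1, with Myl1 at 4.85, 0.82 and 3.28 TPM in wild type and 12.1, 0.87 and 0.76 TPM in knockout 4, 5 and 6, and Tnni2 at 9.68 TPM in knockout 4 and 0.74 to 5.55 TPM in the others. Myod1, Myog and Pax7, which mark muscle precursors, were at or below 0.09 TPM in every library.

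Erythroid members were the most abundant of the 31 genes. In TMM-normalised CPM, the globin genes were 3.70 to 3.89 times as high in knockout 4 as in knockout 5 and 6. The 6 genes held 1.5, 1.27 and 2.45% of all TPM in wild type 1, 2 and 3 and 5.97, 1.64 and 1.65% in knockout 4, 5 and 6. Wild type 3 was second to knockout 4, where wild type 1 had been second for muscle. Log2 fold changes were positive for 5 of the 6 members, negative for Slc4a1, and had a median of 1.15, with 0 called.

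The 4 adult globin genes had the same order over the 5 samples. Hba-a1 was at 2332, 2104 and 3657 TPM in wild type and 9005, 2541 and 2611 TPM in knockout 4, 5 and 6. Hba-a2 was at 5277, 4495 and 8588 TPM in wild type and 20343, 5774 and 5679 TPM in knockout 4, 5 and 6. Hbb-bs, the most abundant member, was at 5666, 4794 and 9636 TPM in wild type and 23619.8, 6249 and 6269 TPM in knockout 4, 5 and 6. In each case knockout 4 was above all wild-type libraries, and knockout 5 and 6 lay between wild type 2 and wild type 3. Hbb-bt was at 1609, 1290.2 and 2494 TPM in wild type and 6491, 1774 and 1817 TPM in knockout 4, 5 and 6. The log2 fold changes of the 4 genes were 1.10 to 1.23 with edgeR adjusted p of 0.555 to 0.575, and were -0.12 to -0.02 without knockout 4.

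The make-up of the globin RNA varied far less between libraries than its amount. Alpha globins made up 48.3% (Wilson interval 48.15 to 48.45%) of globin counts in knockout 4 and 49.1 to 51.1% in the other libraries. Hba-a2 held 63.3 to 66.0% of the alpha globin counts and Hbb-bs 73.7 to 75.8% of the beta globin counts, shares that rest on the division of reads between the copies printed above. The embryonic globin Hbb-bh1 was at 0 in all libraries, and Hbb-y and Hba-x at or below 0.13 TPM.

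Alas2, the first and rate-limiting enzyme of heme synthesis in red cell precursors (chromosome X, 150547375 to 150570638), had the order of the globins. It was at 71.3, 55.4 and 97.05 TPM in wild type and at 274, 76.2 and 77.9 TPM in knockout 4, 5 and 6, the same order over the 5 samples as for Hbb-bs. Its log2 fold change was 1.27 (standard error 0.51, edgeR adjusted p = 0.533), and 0.03 without knockout 4. Alas2 counts per 100 globin counts were 1.68, 1.55 and 1.46 in wild type and 1.67, 1.68 and 1.71 for knockout 4, 5 and 6, so the ratio in knockout 4 lay within that of the others. The largest exon overlap of Alas2 with Apex2 on the opposite strand is 311 bases. The strand setting of the counting is not given in the sources used here, so reads there could belong to either gene. Both genes had fractional expected counts, as for reads divided between genes, with 2057.03 for Alas2 and 304.97 for Apex2 in wild type 1.

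Slc4a1, the anion exchanger (band 3) of the red cell membrane (chromosome 11, 102348824 to 102366203), did not follow the globins. It was at 16.7, 7.73 and 5.58 TPM in wild type and at 9.58, 6.31 and 5.83 TPM in knockout 4, 5 and 6, highest in wild type 1 and lowest in wild type 3. Its log2 fold change was -0.24 (standard error 0.42, edgeR adjusted p = 0.866). Slc4a1 counts per 100 globin counts were 0.811, 0.519 and 0.196 for wild type 1, 2 and 3 and 0.138, 0.328 and 0.298 in knockout 4, 5 and 6. The low ratio in knockout 4 largely reflects its divisor, 434235 globin counts against 99472 to 170460 in the other libraries. Slc4a1 itself had 599 counts in knockout 4, inside the 334 to 996 of the other libraries.

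**Figure D4:**
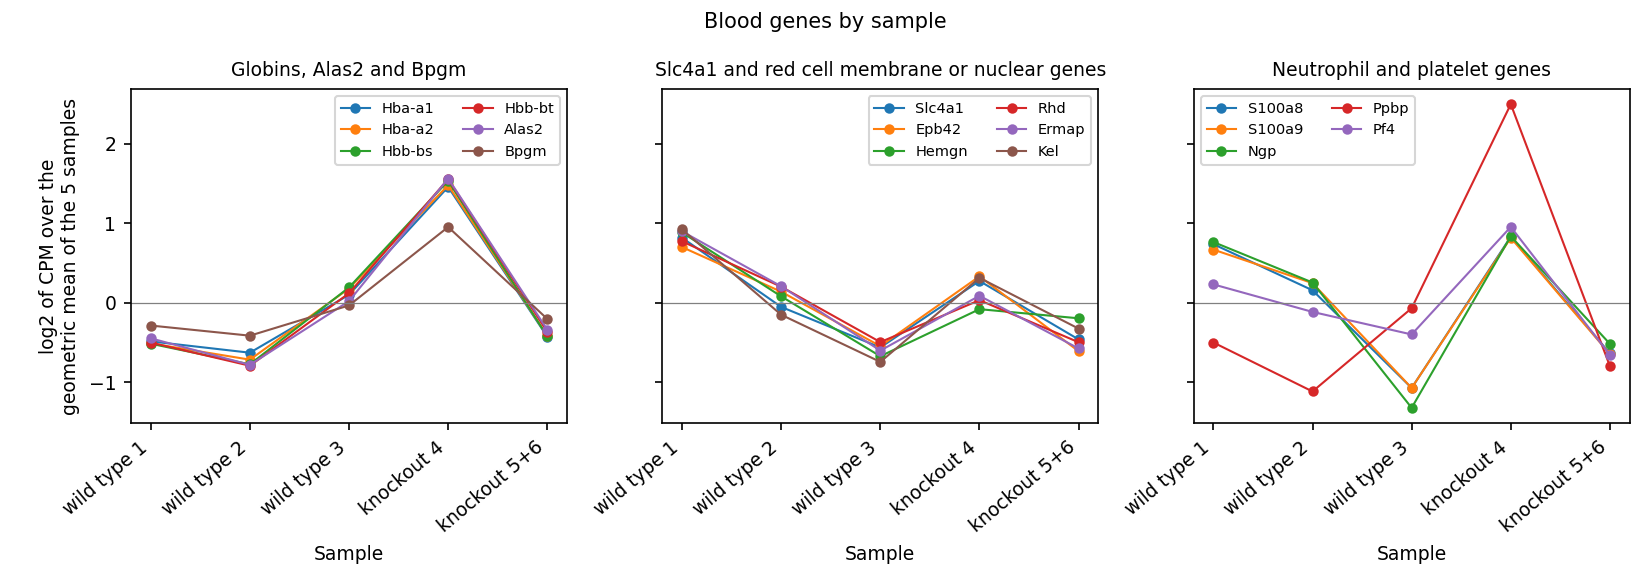
Blood genes in the 5 samples, as log2 of TMM-normalised CPM over each gene's geometric mean (1 point per sample; lines join the points of a gene and show no order in time). The globins, Alas2 and Bpgm peak in knockout 4 (left), Slc4a1 and 5 other red cell genes are highest in wild type 1 (middle), and the neutrophil genes S100a8, S100a9 and Ngp are high in wild type 1 and knockout 4 and lowest in wild type 3 (right).

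Further erythroid genes were split in the same way. Of 23 listed, 22 were in the table and 19 were tested, with 0 called by edgeR, 0 at an unadjusted p under 0.05 and 0 called by DESeq2 or limma. There were 10 positive and 9 negative log2 fold changes with a median of 0.05. Wild type 1 was the highest sample for 9 of the 19, against 25.2% of all genes tested, and knockout 4 for 6, against 15.3%. The 3 at the highest level were Ank1, the red cell ankyrin, which neurons also express, Bpgm, the enzyme that makes the oxygen release factor bisphosphoglycerate, and Fech, the last enzyme of heme synthesis. Ank1 was lower in knockout 4, at 103 TPM, than in knockout 5 and 6, at 159 and 166 TPM. Bpgm was at 52.9, 47.6 and 62.4 TPM in wild type and 120, 59.6 and 57.2 TPM in knockout 4, 5 and 6, with the order of the globins. The membrane and blood group genes Epb42, Rhd, Ermap and Kel and the nuclear gene Hemgn, chosen after their values were seen, were highest in wild type 1, like Slc4a1. Epb42 for example was at 3.49, 1.82 and 1.76 TPM in wild type and 2.01, 1.71 and 1.07 TPM in knockout 4, 5 and 6.

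White cell and platelet genes were also high in knockout 4, but most had another lowest sample than the globins. The summed level of 17 marrow and blood leukocyte genes was 2208, 1540 and 644 TPM in wild type and 2348, 913 and 901 TPM in knockout 4, 5 and 6, and the smallest edgeR adjusted p of the 15 tested was 0.542. Knockout 4 was the highest sample for 11 of the 15, against 15.3% of all genes tested, and had at least 2 times the CPM of knockout 5 and 6 for 13, against 2.76%. Wild type 3, second for the globins, was the lowest sample for 12 of the 15, against 11.6% of all genes tested. The neutrophil calgranulin gene S100a9 was at 869, 636 and 262 TPM in wild type and 935, 356 and 353 TPM in knockout 4, 5 and 6. S100a8, its partner, and Ngp, a neutrophil granule gene, were likewise highest in knockout 4, with 841 and 168 TPM in knockout 4 against 812 and 165 TPM in wild type 1. The platelet chemokine Ppbp, chosen after its values were seen, was at 16.9 TPM in knockout 4 and 1.40 to 2.97 TPM in the other libraries. By CPM its lowest sample was wild type 2, as for the globins.

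Fat members ran the other way: knockout 4 and wild type 2 were the lowest libraries. Their summed level was 16.6, 7.32 and 12.8 TPM in wild type and 6.00, 14.6 and 16.5 TPM in knockout 4, 5 and 6, from 57 to 192 counts per library. Of the 7 genes, 4 were tested and 0 were called, with 1 positive and 3 negative log2 fold changes from -0.27 to 0.17 and a smallest edgeR adjusted p of 0.829. The secreted products came first in this order. Adipoq, the hormone adiponectin, was at 1.27, 0.22 and 0.96 TPM in wild type and 0.23, 1.09 and 1.31 TPM in knockout 4, 5 and 6, from 4 to 24 counts per library. Cfd, the complement protease adipsin, was at 3.65, 1.5 and 2.29 TPM in wild type and 0.76, 3.50 and 4.40 TPM in knockout 4, 5 and 6. The 2 knockout samples thus lay near or past opposite ends of the wild-type range. In TMM-normalised CPM, knockout 4 was at 0.239 times (0.0620 to 0.664) the level of knockout 5 and 6 for Adipoq and 0.202 times (0.0899 to 0.400) for Cfd. Lep, the satiety hormone leptin, had 0 to 5 counts per library and Retn, resistin, 1 to 7, too few to be tested.

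Fabp4 and Cidec, of lipid handling, had the same 2 low libraries. Fabp4, a fatty acid binding protein of adipocytes that capillary endothelium also makes, was at 10.3, 5.23 and 8.62 TPM in wild type and 4.57, 8.20 and 8.84 TPM in knockout 4, 5 and 6. Its log2 fold change was -0.27 (standard error 0.37, edgeR adjusted p = 0.829). Cidec, a lipid droplet protein, was at 0.67, 0.22 and 0.63 TPM in wild type and 0.22, 1.07 and 0.59 TPM in knockout 4, 5 and 6. Plin1, the perilipin that coats the adipocyte droplet, was counted 1, 2 and 5 times in wild type and 1, 10 and 18 times in knockout 4, 5 and 6 and was not tested. By CPM knockout 4 was the highest sample for 15 of all 24 tested members and the lowest for 2, both of them fat genes, against 14.9% of all genes tested, while wild type 2 was low for both muscle and fat.

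Further fat genes had other orders of libraries, and knockout 4 was the lowest sample for 0 of those tested, against 14.9% of all genes tested. Of 20, 15 were tested and 0 were called, and 8 had an unadjusted p under 0.05, against 9.16% of all genes tested. In these 15, 11 log2 fold changes were positive and 4 negative, and the median was 0.39 with a smallest edgeR adjusted p of 0.371. The 3 at the highest level were Pnpla2, the triglyceride lipase, at 23.1 to 46.5 TPM, Thrsp, a regulator of lipid synthesis, and Gpd1, a glycerol phosphate dehydrogenase. Thrsp was at 24.4, 23.1 and 24.9 TPM in wild type and 30.3, 33.4 and 31.5 TPM in knockout 4, 5 and 6, and Gpd1 at 18.3, 20.4 and 19.2 TPM in wild type and 23.8, 30.5 and 31.01 TPM in knockout 4, 5 and 6. For Thrsp and Gpd1 all knockout libraries were above all wild-type ones, but neither passed. By CPM, groups did not overlap for 6 of the 15 with the knockout higher and for 2 with it lower. Over all genes tested, 11.8% had groups that did not overlap with the knockout higher, and 27.4% in either direction. The thermogenic gene Ucp1 was at or below 0.21 TPM in every library.

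Among bone and cartilage members, Ibsp was the 1 gene whose groups did not overlap. Ibsp, bone sialoprotein, a mineral-binding matrix protein (chromosome 5, 104299171 to 104311469), was at 6.87, 6.52 and 5.50 TPM in wild type and 8.39, 8.43 and 9.32 TPM in knockout 4, 5 and 6. In TMM-normalised CPM it was at 5.86 ± 0.70 (SD, n = 3) in wild type and 8.06 ± 0.046 (SD, n = 2) in knockout. With the 6 libraries scaled separately, knockout 4, 5 and 6 were at 7.96, 7.64 and 8.42 CPM. The knockout SD of 2 samples, 1 of them a sum of libraries, thus understates the spread. Of all genes tested, 11.8% had groups that did not overlap with the knockout higher. Its log2 fold change was 0.46 (standard error 0.15, edgeR adjusted p = 0.469), it did not pass, and it was 0.36 to 0.54 under the alternatives. Knockout 4 was 0.993 times knockout 5 and 6 for Ibsp (0.848 to 1.16), so the difference between knockout samples seen for muscle, globin and fat genes was not detectable here.

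The other bone members were at low levels. Dmp1, an acidic matrix protein of osteocytes whose gene lies near Ibsp on chromosome 5 (104202613 to 104214102), was at 0.26, 0.72 and 0.58 TPM in wild type and 0.43, 0.82 and 0.82 TPM in knockout 4, 5 and 6. Acan, the aggregating proteoglycan of cartilage, which also coats some neurons in perineuronal nets, was at 0.20, 0.52 and 0.19 TPM in wild type and 0.35, 0.78 and 0.68 TPM in knockout 4, 5 and 6. Both had wild-type and knockout ranges that overlapped, with log2 fold changes of 0.30 (standard error 0.49) and 0.83 (standard error 0.52) and edgeR adjusted p of 0.858 and 0.655. The osteocalcin copies Bglap and Bglap2 had 0 to 9.63 and 0 to 11.2 counts per library, most in knockout 4 and 0 in wild type 2, and Sp7, the osteoblast transcription factor osterix, had 2 to 4. These 3 had too few counts to be tested.

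Most further bone and cartilage genes had positive log2 fold changes, and 0 passed. Of 28, 17 were tested and 0 were called, and 5 had an unadjusted p under 0.05, against 9.16% of all genes tested. In these 17, 13 log2 fold changes were positive and 4 negative, and the median was 0.30 with a smallest edgeR adjusted p of 0.358. The 3 at the highest level were Cnmd, a cartilage inhibitor of vessel growth, at 30.8 to 44.7 TPM, Col11a1, a fibrillar collagen, at 17.8 to 24.8 TPM, and Hapln1, a link protein of proteoglycans. Hapln1 was at 19.7, 17.4 and 18.6 TPM in wild type and 15.4, 15.3 and 14.9 TPM in knockout 4, 5 and 6, lower in every knockout library. By CPM, groups did not overlap for 6 of the 17 with the knockout higher and for 2 with it lower. Over all genes tested, 27.4% had groups that did not overlap in either direction. Chad, a cartilage matrix protein chosen after its values were seen, was at 1.01, 0.92 and 1.91 TPM in wild type and 2.41, 5.71 and 5.55 TPM in knockout 4, 5 and 6 (log2 fold change 1.68, standard error 0.44, edgeR adjusted p = 0.358). Of the 28, 3 were at 0 in all libraries: the osteocyte gene Mepe, the cartilage gene Matn1 and the osteoclast gene Calcr. Other genes of these cells, picked after their values were seen, were detected in every library, among them Phex of osteocytes at 0.08 to 0.49 TPM, Comp of cartilage at 9.37 to 19.6 TPM and Ctsk of osteoclasts at 8.64 to 16.6 TPM.

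Genes of other tissues around the ganglion had other orders of libraries. Of 6 meningeal genes, led by Ptgds, Slc47a1 and Crabp2, wild type 3 was the highest sample for 6, against 13.9% of all genes tested. Their sum was 215, 140.5 and 398 TPM in wild type and 305, 108 and 100.1 TPM in knockout 4, 5 and 6. Most of it was Ptgds, at up to 367 TPM. Ptgds was the 1 gene of the 6 with at least 2 times the CPM of knockout 5 and 6 in knockout 4. Smooth muscle genes, led by Tagln, Acta2 and Myh11, summed to 32.2 to 53.5 TPM and were highest in wild type 3, so knockout 4 did not stand out for the muscle of vessel walls. Spinal cord genes, led by Aqp4, Mobp and Slc1a2, summed to 9.48 to 18.2 TPM, with Mog at or below 0.37 TPM and Olig2 at or below 0.05 TPM. Epidermal genes, led by Krt10, Krtdap and Krt1, summed to 2.81 to 6.26 TPM with Krt5 at 0 in all libraries. The sympathetic genes Phox2a, Dbh and Slc6a2 were at or below 0.24 TPM in every library. The part of adjoining tissue or blood in any of these results was not tested, and with 2 knockout samples that differ in the muscle, fat and globin genes, genotype and library cannot be told apart for them.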

How the data were processed

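The submitters' processing notes name Trimmomatic 0.38 (trimming), STAR 2.6.0a (alignment), RSEM 1.3.0 (quantification) and the build GRCm38. Libraries came from a stranded mRNA kit, per the labels' protocols. Annotation release and strand setting: not given in the sources used here. Per the file headers, 1 deposited table holds expected counts (RSEM's estimated counts per gene, not normalised), TPM and gene lengths. Expected counts were fractional, beyond a tolerance of 1e-09, for 27.1 to 27.9% of detected genes. Deposited FPKM values were not used.

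Symbols and positions came from GENCODE vM21 (GRCm38). They matched 35243 of 36793 identifiers, all 31 members and 170 of 171 further genes. Promoters came from the RefSeq table. Expected counts were rounded, filtered with filterByExpr, scaled by TMM and compared by quasi-likelihood in edgeR 4.0.16 (R 4.3.3). The test was two-sided, with genotype as the only term, over 16810 genes and with Benjamini-Hochberg adjustment at 0.05. CPM are counts per 1000000. Ratios of libraries use library sizes scaled by TMM, with exact 95% intervals. Libraries 5 and 6 were summed where a chi-square test per gene found no difference. The scripts were tested on simulated data.

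Alternatives were 6 separate libraries, DESeq2 1.42.0, its size factors, limma 3.58.1 on log2(TPM + 1), no count filter, scaling without the tissue genes, and each sample left out. All members are named, and of each further list the called genes and up to 3 with the highest mean TPM. Some genes that this rule names are not reported here. The members and lists were chosen with earlier results of these data known.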

Additional observations from a re-analysis of the deposited data

How the results depend on the processing

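No member and none of the 106 further genes of the 4 tissues was called under any alternative run. The members' smallest adjusted p was 0.148 (6 libraries counted separately) to 0.78 (without wild type 1). Members with an unadjusted edgeR p under 0.05 numbered 3 of 24 in the main comparison, 12 of 31 with no filter and 0 of 23 without wild type 3. Of all genes tested, 9.16% reached this in the main comparison, and no such share is given for the other runs. Over all genes, 16 were called, 144 with 6 libraries counted separately, 255 with the DESeq2 test, 81 with no filter and 7 to 14 with a sample left out (7 without knockout 4, 8 without wild type 2, 10 without wild type 3). The cause was not tested.

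Of the recomputed fold changes of members, 234 kept their sign and 27 did not. With wild type 1, 2 or 3 or knockout 4 left out, the log2 fold changes ranged from -0.64 to 2.10 for Acta1, -0.88 to 2.04 for Ckm, -0.99 to 1.70 for Mylpf, -0.11 to 2.604 for Myh4, -1.83 to 1.63 for Tnnt3, -0.91 to 2.27 for Tnnc2, -0.25 to 0.23 for Mb, -0.35 to 1.15 for Ttn, -0.70 to 2.37 for Atp2a1, -0.12 to 1.36 for Hba-a1, -0.12 to 1.43 for Hba-a2, -0.11 to 1.504 for Hbb-bs and -0.024 to 1.53 for Hbb-bt, the lower value in each case without knockout 4. The ranges were -0.45 to 0.76 for Adipoq, -0.50 to 0.054 for Fabp4 and -0.26 to 0.64 for Cfd, positive without knockout 4 (0.52, 0.054, 0.64), and -0.27 to 0.67 for Cidec, -0.64 to 0.25 for Slc4a1 and -0.0088 to 0.63 for Dmp1. Without wild type 1 the value was 0.76 for Adipoq, 0.40 for Cfd, 0.25 for Slc4a1 and -0.0088 for Dmp1, and without wild type 2 -0.18 for Mb and -0.27 for Cidec. Without knockout 5 and 6 it was -1.02 for Cidec, 0.086 for Slc4a1 and -0.25 for Dmp1, and with 6 libraries 0.12 for Adipoq and 0.20 for Cfd. Log2 ratios of summed TPM were 0.87 for muscle, 0.91 for erythroid, -0.26 for fat and 0.60 for bone and cartilage. With 1 of wild type 1 to 3 or knockout 4 left out, alternatives chosen after seeing the data, they ranged from -0.59 to 1.29, -0.024 to 1.18, -0.60 to 0.42 and 0.51 to 0.65, and without knockout 5 and 6 they were 2.34, 1.84, -0.95 and 0.69. The bone and cartilage ratio was 0.49 by share of counts and 1.01 without Ibsp.

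No paired analysis was possible because no mouse number occurs in both genotypes. Low counts limit the fat and bone genes most: 7 members could not be tested, with at most 18 counts in any library.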
